A study of Mus musculus with 24 samples.

Results

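The genes described here are the expressed genes of mouse chromosome 15 in EO771 mammary carcinoma cells, a chromosome whose genes were, as a body, slightly more abundant in the X2-PDPN derivative than in its X2 control. Members were all genes annotated to chromosome 15 in the batch 1 count table that had at least 10 counts in 4 or more batch 1 libraries. The rule gave 562 genes of the 1852 chromosome 15 genes and of the 55471 genes on all chromosomes in that table, and 560 of the 562 identifiers were also in the batch 2 table. The chromosome was singled out because of the X2-PDPN against X2 difference itself, so every value of that contrast is a description. Calls at an adjusted p under 0.05 are counted for it as a description too, and no p-value is given. Of the members, 485 were protein coding, 23 were processed pseudogenes, 16 were antisense RNAs and 13 were long intergenic RNAs. The count rule alone decided the border: Enpp2 (1 to 25 counts per library), Aqp2 (1 to 20) and Snord43 (1 to 16) lay just inside it, and Apol8 and Shisal1 (both 1 to 15) lay just outside it.

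All 24 libraries came from EO771, a mammary carcinoma line that arose in C57BL/6 mice. X2 cells were the vector control of a retroviral transduction, and CCR7 cells had been transduced with mouse Ccr7 and the tdTomato reporter. The authors detected tdTomato in X2 tumours too, and they report that its level was controlled for across derivatives. Ccr7 encodes the chemokine receptor that guides cells toward lymphatic vessels and lymph nodes. The CCR7 libraries are named PDPN minus in the labels, for the CCR7-transduced cells without podoplanin. The CCR7-PDPN derivative was obtained from CCR7-transduced cells, and the X2-PDPN derivative from vector control cells, by sorting for podoplanin (PDPN) that had appeared spontaneously on the cell surface. Podoplanin is a mucin-like membrane glycoprotein of lymphatic endothelium, fibroblastic reticular cells and some invading tumour cells. The groups of batch 1 were CCR7-PDPN, CCR7 and X2 and those of batch 2 were CCR7-PDPN, X2-PDPN and X2, with 4 libraries in each of the 6 groups. The 4 libraries of a group were technical replicates of one cultured derivative. No clone was selected, and each derivative existed once, so the p-values measure only the spread between technical replicates and cannot say whether another sort would behave alike.

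Mouse chromosome 15 carries Myc, the proto-oncogene whose transcription factor drives growth and ribosome production, and with it the Hoxc homeobox cluster, the type II keratins, the Ly6 family of lipid-anchored surface proteins, several tubulins and many chromatin regulators. Genes on one chromosome share no single function, and a shift that touches most of them is read from its position along the chromosome rather than from a pathway. RNA counts report how much transcript was present, not how many copies of the chromosome a cell held, and in bulk RNA fewer cells of a type and less RNA per cell cannot be told apart.

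Sequences upstream of the RefSeq transcription start are shown for the member farthest above the chromosome median in X2-PDPN cells (A4galt), for a chromatin regulator also among the members farthest above it (Kmt2d), and for the paralogs farthest below it (Apol9a and Apol9b). This choice was made after their values had been seen. The sequences are from RefSeq on GRCm38.p6 and run 5′ to 3′ on the strand of the gene. A4galt is given at chr15:83251775-83251979 (minus strand, 205 bases ending 45 bases before the RefSeq start) and Kmt2d at chr15:98871206-98871455 (minus strand, 250 bases), with GGGCGG, the core bound by Sp1-type factors, in capitals on either strand. For Apol9a (chr15:77411117-77411146, minus strand, ending 36 bases before the RefSeq start) and Apol9b (chr15:77729028-77729057, plus strand, ending 14 bases before it) 30 bases are given, with GAAANNGAA, the core of the interferon-stimulated response element, in capitals. Both Apol9 stretches lie before the RefSeq start but run into the gene as the count tables annotate it, most of the capitals included.

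A4galt: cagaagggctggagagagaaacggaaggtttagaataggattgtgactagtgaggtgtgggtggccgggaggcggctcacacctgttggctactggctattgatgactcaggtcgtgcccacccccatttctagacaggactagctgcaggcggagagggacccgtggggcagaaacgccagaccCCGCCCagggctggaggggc

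Kmt2d: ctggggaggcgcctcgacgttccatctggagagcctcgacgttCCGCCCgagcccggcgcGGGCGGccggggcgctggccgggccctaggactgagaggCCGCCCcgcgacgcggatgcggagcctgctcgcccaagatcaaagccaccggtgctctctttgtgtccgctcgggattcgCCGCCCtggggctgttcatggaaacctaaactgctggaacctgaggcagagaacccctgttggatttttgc

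Apol9a: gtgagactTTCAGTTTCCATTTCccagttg

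Apol9b: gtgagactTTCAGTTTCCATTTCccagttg

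The A4galt stretch of 205 bases held GGGCGG at 1 place, and the full 250 bases before the RefSeq start held it at 3. The Kmt2d stretch of 250 bases held it at 4. The A4galt stretch also held GAAANNGAA at 1 place, which is not in capitals. The Apol9a and Apol9b stretches were the same 30 bases and held GAAANNGAA at 2 overlapping places, and over the 250 bases upstream of each gene the paralogs shared 228 identical bases (83.8% of 272 alignment columns). In the RefSeq promoter table, 293 of the 562 members had an entry, and Myc was not among them. GGGCGG was present in the 250 upstream bases of 65.5% of those members and of 32.9% of all 27025 genes of the table. CACGTG, the E-box bound by Myc and Max, was present in 9.56% of members and 6.05% of all genes, CCAAT in 35.8% and 34.5%, TATAAA in 4.78% and 13.0%, and GAAANNGAA, a motif chosen after the Apol9 values were seen, in 7.85% and 7.16%. Members had to pass the count rule and the 27025 genes did not, and shares among expressed genes of other chromosomes were not computed. For members the entry nearest the annotated gene start was used, and for all genes the first entry. The gaps in these shares are therefore not read as a trait of the chromosome. All motifs were searched on both strands, each on its own, so that hits of different motifs may overlap, and a match describes letters, not a bound site. In X2-PDPN against X2, the median log2 fold change was 0.22 for the 192 members with GGGCGG and 0.19 for the members without it, 0.30 and 0.21 for CACGTG, 0.23 and 0.21 for CCAAT, 0.21 and 0.21 for TATAAA, and 0.25 and 0.21 for GAAANNGAA, given as a description.

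Totals ranged from 22275468 to 33395418 counts per library in batch 1 and from 22788542 to 35721027 in batch 2. Pdpn followed the sort, at 49.9 to 52.9 TPM (group means of counts scaled by exonic length and to a fixed total) in the PDPN-sorted groups, 0.85 in CCR7 cells and 0.13 to 0.33 in X2 cells, and Ccr7 was at 5311 TPM or more in every CCR7-transduced group and at 1.25 or less elsewhere. Of 4 markers for the line, Vim (1848 to 2340 TPM) and Krt8 (425 to 560 TPM) were abundant. Epcam (0 to 2 counts) and Krt18 (1 to 9 counts) were nearly absent in batch 1 and had no entry in the batch 2 counts. Among 6 immune markers, Ptprc and Cd3e had 0 to 4 counts in any batch 1 library and no entry in the batch 2 counts. Only 3 of the 6 had an entry in batch 2. The summed TPM of the immune markers, nearly all from Cd68 and Lyz2, was 154 to 167 in X2, 75.5 to 88.7 in X2-PDPN and 23.7 to 32.1 in CCR7-PDPN cells of batch 2, and 150 to 177, 46.2 to 63.6 and 26.6 to 34.0 in X2, CCR7 and CCR7-PDPN cells of batch 1. It differed between the same groups as the gene differences below, and its part in them was not tested. The 5 endothelial markers summed to between 0.68 and 1.41 TPM in every library, with Kdr and Prox1 at 0 to 2 counts in batch 1. In batch 2 the sum covered 3 of the 5, since Kdr and Prox1 had no entry.

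Across chromosome 15, transcripts were a little more abundant in X2-PDPN than in X2 cells. The median log2 fold change (edgeR, on counts scaled by TMM, a trimmed-mean depth correction) was 0.21 over the 551 members tested, a 1.16-fold difference, with quartiles of 0.05 and 0.40. The 12758 tested genes on other chromosomes had a median of -0.01 and quartiles of -0.17 and 0.19. Of the members, 446 (80.9%) were above 0, beside 48.8% of the other genes. By the call used throughout, an adjusted p under 0.05 from edgeR's quasi-likelihood test over all genes tested, 335 members were higher and 41 lower, beside a background of 28.2% of all genes called higher and 28.5% called lower. With the further demand of an absolute log2 fold change above 1, 17 members were higher and 5 lower, against 3.51% and 1.55% of all genes. The members were chosen on this contrast, so the counts are given as a description. The shift was shallow, and 358 members lay within 0.25 of the chromosome median and 474 within 0.5. These counts describe spread alone, since CCR7 against X2, with a median of -0.003, gave 350 and 444 of 557.

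The difference was seen in each X2-PDPN library. A score was computed per library as the median over members of log2 CPM (counts scaled to a fixed total) minus the mean of the X2 libraries of the same batch, less the same median over genes on other chromosomes. It was 0.219, 0.225, 0.211 and 0.215 in the 4 X2-PDPN libraries (mean 0.218 ± 0.006, SD, n = 4), and it lay between -0.018 and 0.026 in the 20 other libraries. The 4 X2-PDPN libraries stood apart from all others, and the scores of the CCR7 and CCR7-PDPN libraries lay around those of the X2 libraries. Chromosome 15 genes took 6.37% to 6.39% of the counts in X2-PDPN libraries and 5.56% to 5.59% in the X2 libraries of the same batch. The ratio of the mean shares was 1.14, and it was 1.16 without the 10 most abundant members (Pabpc1, Eif4b, Rpl8, Rpl3, Hnrnpa1, Cct5, Pcbp2, Myh9, Myc and Plxnb2). The share was 5.43% to 5.47% in CCR7-PDPN of batch 2, and in batch 1 it was 5.44% to 5.49% in CCR7-PDPN, 5.45% to 5.56% in CCR7 and 5.58% to 5.60% in X2. Every CCR7 and CCR7-PDPN library thus lay below every X2 library of its batch, with ratios to X2 of 0.985 for CCR7 and of 0.975 and 0.977 for CCR7-PDPN of batches 1 and 2, and these were 0.996, 0.989 and 0.991 without the 10 most abundant members.

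**Figure D1:**
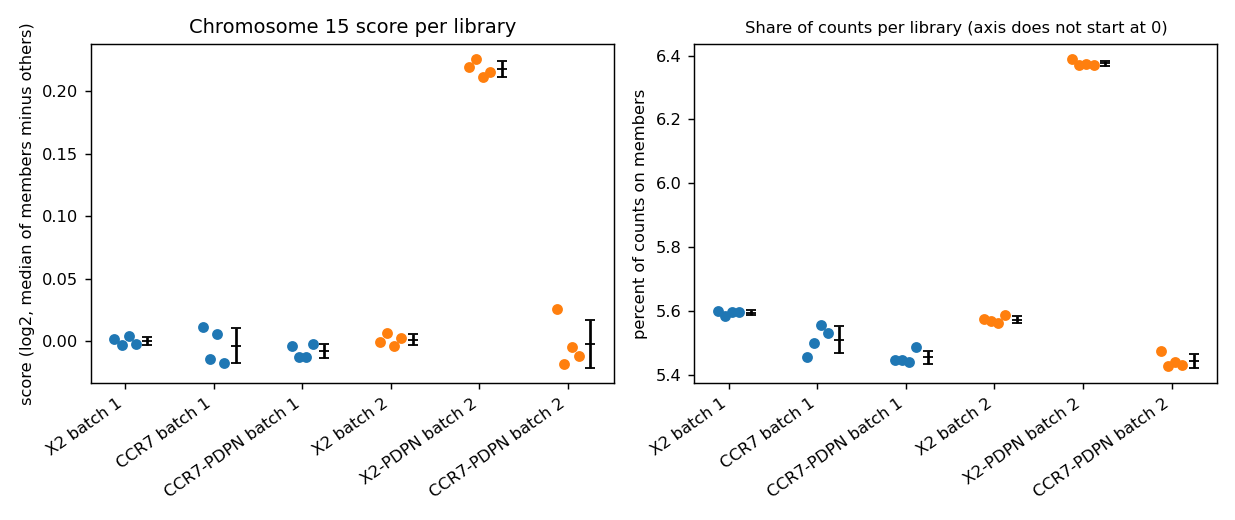
Chromosome 15 score (left, log2 units) and percent of library counts on chromosome 15 members (right, axis not starting at 0) for each of the 24 libraries, by group, with blue points for batch 1, orange points for batch 2 and a black bar for the group mean with its SD. The 4 X2-PDPN libraries sit at 0.211 to 0.225 and at 6.37% to 6.39%, above every other library.

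The shift was spread along the chromosome. Cut into 11 windows of 10 Mb (GRCm38), 10 of 11 window medians were above 0 in X2-PDPN against X2. The 7 windows with at least 20 genes had medians between 0.16 and 0.29, the highest over the 64 tested members between 100 and 110 Mb, of which 57 were above 0. Between 10 and 20 Mb all 15 members were above 0, with a median of 0.16. The windows with low medians were thinly filled: the median was -0.03 over 9 members between 40 and 50 Mb and 0.03 over the 15 members between 60 and 70 Mb, where Myc lies. In 14 windows of 40 consecutive members every median was above 0, from 0.08 to 0.37, and with 5 Mb windows 17 of 20 were above 0. It was of like size across levels and lengths: the median of members exceeded that of other genes by 0.20 to 0.25 in each of 3 equal classes of expression level, exonic length and GC content. It was 0.19 on the plus strand and 0.22 on the minus strand. The 21 tested processed pseudogenes, near copies whose counts are uncertain, had a median of -0.17 beside -0.06 for the processed pseudogenes of other chromosomes. These divisions were chosen after the data had been seen.

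**Figure D2:**
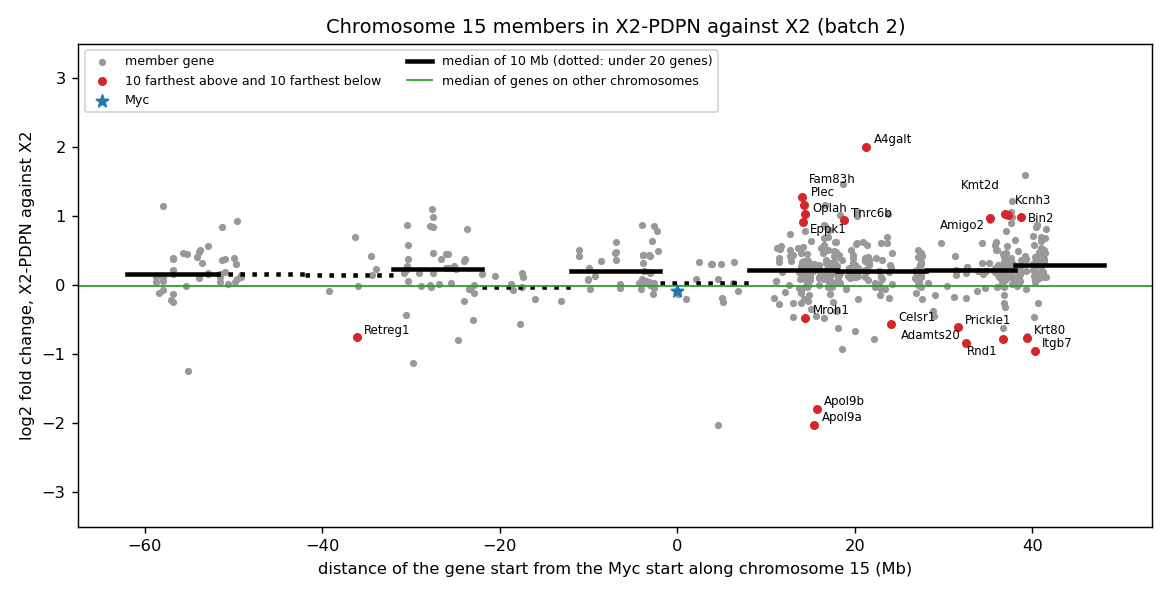
Log2 fold change of each tested member in X2-PDPN against X2 (batch 2) against the distance of its start from the Myc start in Mb, with the median of each 10 Mb window in black (dotted where under 20 genes) and the median of genes on other chromosomes in green. The quartiles of the points are 0.05 and 0.40, 10 of 11 window medians are above 0 and the other, over 9 members, is at -0.03. A4galt (2.01) and Apol9a (-2.02) lie farthest among the labelled members.

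No such shift was measured in the other derivatives. CCR7-PDPN against X2 gave a member median of 0.004 in batch 1 and -0.004 in batch 2, the latter sharing its X2 libraries with the contrast that chose the chromosome. CCR7 against X2 gave -0.003, and CCR7-PDPN against CCR7 gave -0.009. CCR7-PDPN against X2-PDPN gave -0.19, with 108 of 551 members above 0, which is the X2-PDPN difference seen from the other side since those libraries are shared. All 11 of its 10 Mb windows were below 0, whereas 3 to 6 of 11 windows were above 0 in the comparisons without X2-PDPN.

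**Figure D3:**
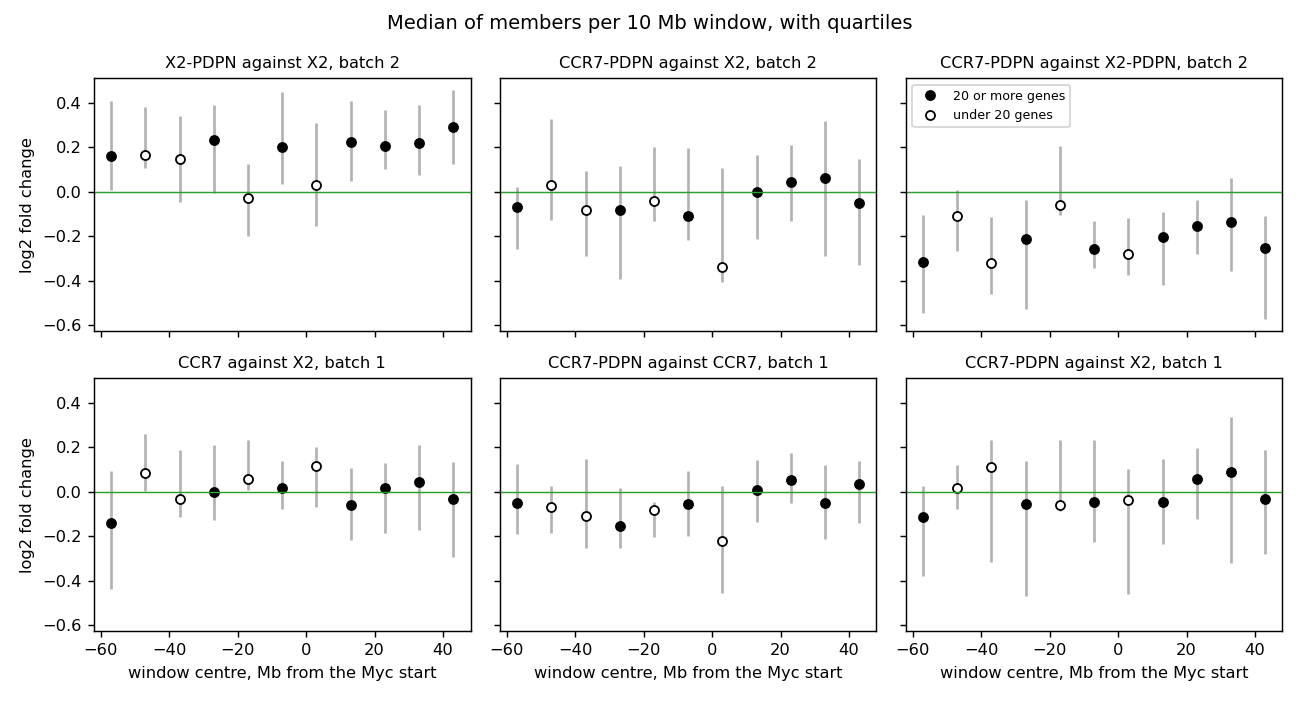
Median log2 fold change of members in each 10 Mb window, with quartiles as bars, against the window centre in Mb from the Myc start, for the 6 within-batch comparisons (filled points: 20 or more genes). In X2-PDPN against X2 the filled points lie at 0.16 to 0.29, in CCR7-PDPN against X2-PDPN at -0.32 to -0.14, and in the other comparisons on both sides of 0.

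Individual members still changed in the CCR7 derivatives, in both directions. CCR7 against X2 called 119 members higher and 147 lower of 557 (background 24% and 25.2% of all genes), and CCR7-PDPN against CCR7 called 126 higher and 121 lower (background 20.9% and 20.7%). CCR7-PDPN against X2 called 149 higher and 172 lower in batch 1 (background 30.3% and 30.6%) and 170 higher and 187 lower of 551 in batch 2 (background 32.0% and 32.8%). The shares of members called were 21.4% and 26.4% for CCR7 against X2 and 30.9% and 33.9% for CCR7-PDPN against X2 of batch 2, near the background, and nothing about the chromosome is read from them. Past a log2 fold change of 1, batch 1 gave 15 higher and 40 lower for CCR7-PDPN against X2 (background 4.09% and 5.36%), 14 higher and 20 lower for CCR7 against X2 (background 3.3% and 3.18%) and 4 higher and 17 lower for CCR7-PDPN against CCR7 (background 0.664% and 2.6%). In batch 2, 14 members were higher and 36 lower in CCR7-PDPN against X2 (background 3.96% and 5.67%). CCR7-PDPN against X2-PDPN, which shares the X2-PDPN libraries, had 37 higher and 340 lower (background 31.2% and 32.0%), and past the fold limit 3 higher and 42 lower (background 2.76% and 6.4%). The CCR7-PDPN against X2 pattern repeated between batches with no library in common, though both batches measured the same derivatives. Over 550 members the fold changes had a Pearson r of 0.948 across genes, which are not independent replicates. Of these members, 504 (91.6%) had the same sign, and 292 were called in the same direction in both batches and 0 in opposite directions. The median absolute difference was 0.040. The like values over all genes were not computed, so nothing about the chromosome is read from these counts.

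Chromosome 15 ranked first of 20 chromosomes (19 autosomes and X) in X2-PDPN against X2. Its median of 0.21 was followed by 0.13 for chromosome 9, and chromosomes 8 and 18 were lowest with -0.20 each. In CCR7-PDPN against X2 it ranked 11th in batch 1 and 12th in batch 2, and there chromosome 9 was highest (0.32 and 0.33) and chromosome 14 lowest (-0.57 and -0.58). In CCR7 against X2 it ranked 12th, again between chromosome 9 (0.33) and chromosome 14 (-0.45). Medians away from 0 were thus also measured on other chromosomes in these derivatives.

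**Figure D4:**
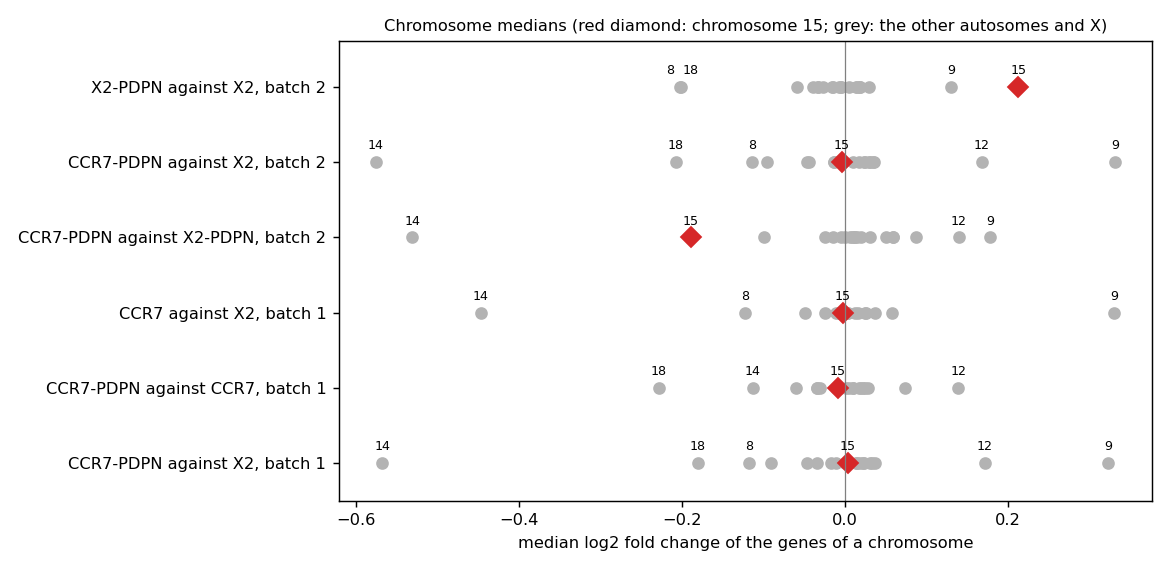
Median log2 fold change of the tested genes of each chromosome in the 6 within-batch comparisons (red diamond: chromosome 15, grey: the other autosomes and X). Chromosome 15 is the highest at 0.21 in X2-PDPN against X2 and lies near 0 in the CCR7 comparisons with X2, where chromosome 14 is lowest and chromosome 9 highest.

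Myc (chr15:61985391-61990374, plus strand) did not follow the chromosome. It was at 862, 873, 833 and 931 CPM in the X2 libraries of batch 2 and at 839, 805, 841 and 830 CPM in the X2-PDPN libraries. The ranges overlapped, and the log2 fold change was -0.08 ± 0.03 (SE), which lay 0.29 below the chromosome median. It counted among the 41 members called lower, but the call was lost without X2 replicate 4 (-0.05) or without X2-PDPN replicate 2 (-0.06). In the CCR7-PDPN libraries of batch 2 Myc was at 690, 663, 658 and 678 CPM, below every X2 library, with a log2 fold change of -0.38 ± 0.03 against X2 (edgeR, adjusted p = 2.7e-16). Batch 1 gave 713, 695, 709 and 785 CPM in CCR7-PDPN against 914, 890, 868 and 964 in X2 and -0.33 ± 0.06 (edgeR, adjusted p = 2.0e-04). CCR7 cells, at 835, 924, 1011 and 969 CPM, overlapped X2 (0.04 ± 0.06, edgeR, adjusted p = 0.59), and CCR7-PDPN was lower than CCR7 (-0.37 ± 0.06, edgeR, adjusted p = 1.7e-04). On a per-length scale Myc was an abundant transcript in every group, from a mean of 910 TPM in CCR7-PDPN of batch 2 to 1291 TPM in CCR7 cells.

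The genes of the Myc neighbourhood list had a median of 0.19 in X2-PDPN against X2, beside 0.21 for the chromosome. The thinly filled 10 Mb window that holds Myc had a lower median, given above with the other windows. Of 20 tested genes in the neighbourhood list, 13 (65%) were called higher and 2 (10%) lower, beside 60.8% and 7.44% of all chromosome 15 members and 28.2% and 28.5% of all genes. The list counts for X2-PDPN against X2 here and below come from the contrast that chose the chromosome and are read against these shares as a description. For list counts in CCR7-PDPN against X2, here and below, 32.0% of all genes were called higher and 32.8% lower in batch 2. In batch 1 these shares were 30.3% and 30.6%. No direction of a list is read from counts near them. Fam83a (0.88), Sqle (0.87), the squalene epoxidase of cholesterol synthesis, and Trib1 (0.78), a pseudokinase, were highest, while Pvt1, the non-coding neighbour of Myc, was at -0.13 and Derl1, a protein of endoplasmic reticulum quality control, at -0.05. These genes were picked from the list after their values had been seen, apart from Derl1. In CCR7-PDPN against X2, 6 were higher and 12 lower in batch 2 (median -0.13), and 6 higher and 9 lower in batch 1 (median -0.09). Off chromosome 15, the lists of Myc partners and targets were divided: 6 of 11 network genes were called higher and 1 lower in X2-PDPN against X2 (median 0.13), and of 30 textbook targets 4 (13.3%) were called higher and 14 (46.7%) lower (median -0.07), beside 28.2% and 28.5% of all genes. Max, the obligate partner of Myc, was at -0.05 ± 0.03, and the targets Npm1 and Ldha were at -0.02 ± 0.03 and -0.00 ± 0.03. CCR7-PDPN against X2 called 8 targets higher and 15 lower in batch 2 and 5 higher and 13 lower in batch 1.

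Above the chromosome median in X2-PDPN cells, A4galt was farthest. A4galt (chr15:83226722-83251774) encodes the galactosyltransferase that makes the glycolipid Gb3. It was at 2.93, 2.47, 3.23 and 2.29 CPM in X2 and at 10.9, 10.7, 11.2 and 11.1 CPM in X2-PDPN of batch 2, a log2 fold change of 2.01 ± 0.09 (4.02-fold). CCR7-PDPN cells had it too: CCR7-PDPN libraries of batch 2 held 10.4 to 12.5 CPM (2.10 ± 0.09 against X2, edgeR, adjusted p = 1.1e-23), and those of batch 1 held 10.5 to 12.3 CPM against 2.18 to 2.66 in X2 (2.18 ± 0.12, edgeR, adjusted p = 6.1e-13). CCR7 cells were in between, at 6.85, 6.27, 4.72 and 4.86 CPM (1.19 ± 0.13 against X2, edgeR, adjusted p = 8.3e-08). The groups did not overlap, except that CCR7-PDPN and X2-PDPN of batch 2 did. For X2 beside each derivative, the rule for named genes required this.

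Kcnh3, a voltage-gated potassium channel, and Fam83h, a scaffold protein, were likewise high in both PDPN-sorted groups of batch 2. The rule for named genes chose them on the X2 libraries that also serve CCR7-PDPN against X2 of batch 2. The p-values of that comparison are therefore not independent of the choice. This holds for every member named by X2-PDPN against X2. Kcnh3 was at 2.89, 3.32, 2.35 and 3.31 CPM in X2 and 4.74, 6.63, 6.39 and 6.23 CPM in X2-PDPN (1.02 ± 0.12), with 4.46 to 6.23 CPM in CCR7-PDPN of the same batch (0.90 ± 0.12 against X2, edgeR, adjusted p = 5.8e-08). Fam83h was at 5.56, 3.82, 5.13 and 5.70 CPM in X2 and 10.9, 13.1, 11.5 and 13.4 in X2-PDPN (1.27 ± 0.09), with 8.72 to 10.4 CPM in CCR7-PDPN (0.93 ± 0.10, edgeR, adjusted p = 3.1e-10). Neither differed from X2 beyond the spread in CCR7 cells (0.07 ± 0.12 and 0.08 ± 0.09, edgeR, adjusted p = 0.66 and 0.48). Bin2, a membrane-curving BAR protein, was higher in both PDPN-sorted groups and lower in CCR7 cells. It was at 7.59, 7.74, 7.15 and 7.85 CPM in X2, 16.2, 15.9, 13.9 and 14.2 in X2-PDPN (0.99 ± 0.07) and 13.0 to 14.1 in CCR7-PDPN of batch 2 (0.83 ± 0.07, edgeR, adjusted p = 4.2e-14). In batch 1 it was at 6.84 to 7.95 CPM in X2, 3.69 to 4.50 in CCR7 (-0.80 ± 0.09, edgeR, adjusted p = 1.0e-07) and 12.7 to 14.4 in CCR7-PDPN.

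Plec, Eppk1, Kmt2d and Tnrc6b were also among the members farthest above the median. Plec, plectin, links intermediate filaments to junctions, and it was at 382, 413, 375 and 349 CPM in X2 and 878, 806, 840 and 872 CPM in X2-PDPN (1.16 ± 0.07). The related plakin Eppk1, epiplakin, was at 10.0 to 12.6 CPM in X2 and 20.3 to 23.4 in X2-PDPN (0.92 ± 0.07). Kmt2d, a histone H3 lysine methyltransferase of enhancers, was at 123, 119, 125 and 93.5 CPM in X2 and 229, 222, 232 and 257 CPM in X2-PDPN (1.03 ± 0.09). Tnrc6b, an Argonaute partner in microRNA silencing, was at 52.4, 55.1, 55.1 and 39.1 CPM in X2 and 95.7, 91.9, 96.9 and 104 in X2-PDPN (0.95 ± 0.10). In all 4 the X2-PDPN libraries lay above every X2 library of the batch, which the rule for named genes required. CCR7-PDPN lay between for Plec (449 to 549 CPM, 0.41 ± 0.07 against X2, edgeR, adjusted p = 3.7e-04), Kmt2d (146 to 173 CPM, 0.45 ± 0.10, edgeR, adjusted p = 2.0e-03) and Tnrc6b (60.4 to 70.8 CPM, 0.40 ± 0.10, edgeR, adjusted p = 7.2e-03) in batch 2. In batch 1 the same comparison gave 0.37 ± 0.10 for Plec (edgeR, adjusted p = 8.5e-03), but 0.43 ± 0.21 for Kmt2d and 0.36 ± 0.16 for Tnrc6b did not pass the test (edgeR, adjusted p = 0.10 and 0.076). In CCR7 cells these genes varied from library to library: Kmt2d was at 129, 269, 161 and 190 CPM and Tnrc6b at 54.8, 95.9, 64.5 and 73.1 CPM, with replicate 2 highest for both.

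Oplah and Amigo2 were high in X2-PDPN cells and not in CCR7-PDPN cells. For X2 beside X2-PDPN, the rule for named genes required libraries that did not overlap. Oplah, the oxoprolinase of the glutathione cycle, was at 18.7, 20.4, 18.4 and 19.2 CPM in X2, at 38.9, 39.3, 39.9 and 38.5 CPM in X2-PDPN (1.03 ± 0.05) and at 17.7, 17.6, 19.0 and 16.8 CPM in CCR7-PDPN. CCR7-PDPN against X2 gave -0.11 ± 0.05 for Oplah in batch 2 (edgeR, adjusted p = 0.075; called without CCR7-PDPN replicate 3 or X2 replicate 3) and -0.09 ± 0.06 in batch 1 (edgeR, adjusted p = 0.18). Amigo2, a leucine-rich adhesion protein, differed from X2 in opposite directions in the PDPN-sorted cells. It was at 1.93, 1.84, 2.16 and 2.12 CPM in X2, at 3.85, 4.06, 4.71 and 3.12 CPM in X2-PDPN (0.97 ± 0.14) and at 0.22, 0.19, 0.25 and 0.44 CPM in CCR7-PDPN (-2.85 ± 0.24 against X2, edgeR, adjusted p = 5.9e-14). Batch 1 gave 0.16 to 0.32 CPM in CCR7-PDPN, 1.59 to 2.20 in CCR7 and 1.68 to 2.31 in X2, so that CCR7-PDPN lay below both (-2.98 ± 0.24 against CCR7, edgeR, adjusted p = 4.6e-09).

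**Figure D5:**
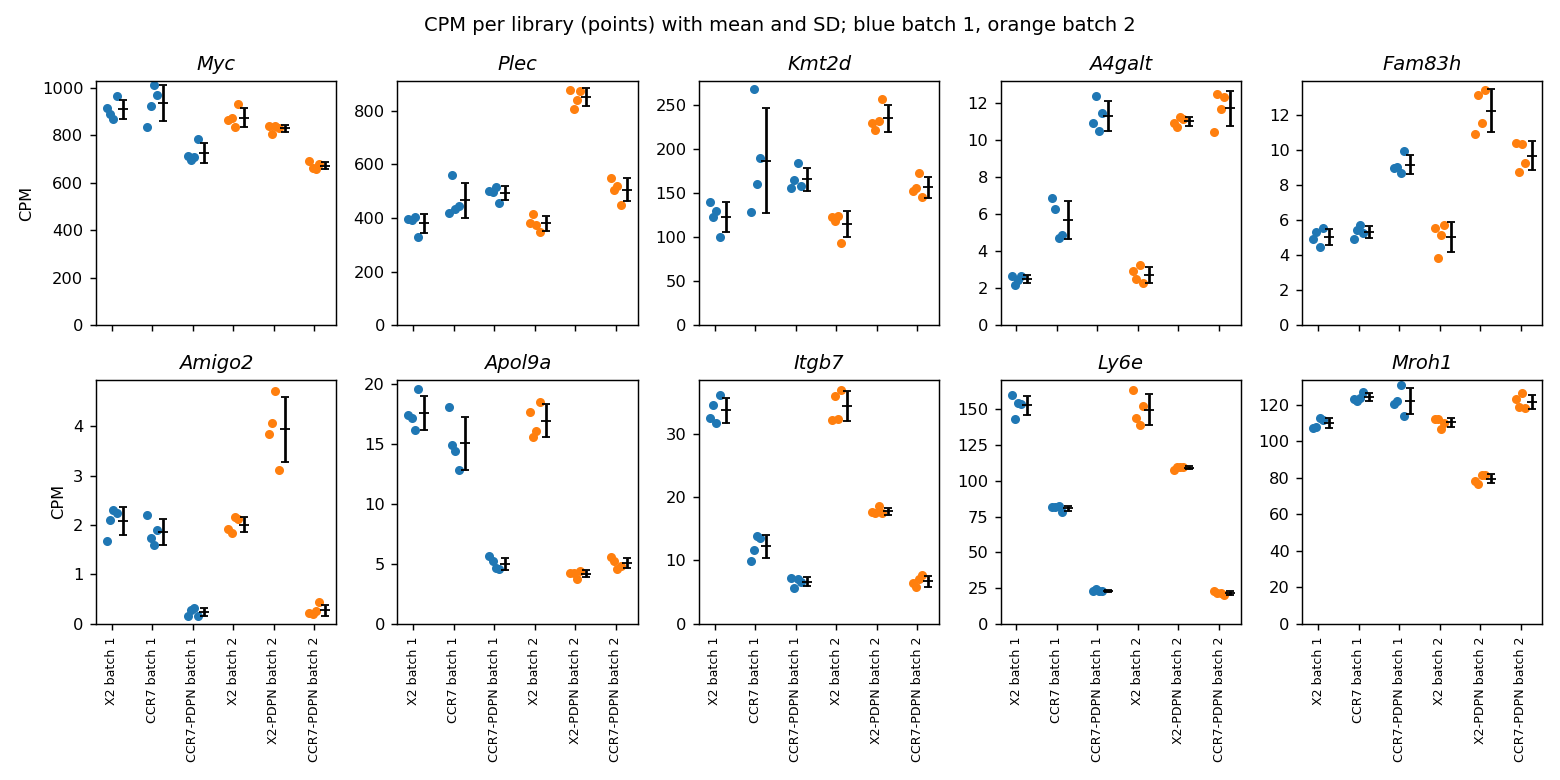
CPM of Myc, Plec, Kmt2d, A4galt, Fam83h, Amigo2, Apol9a, Itgb7, Ly6e and Mroh1 in each library (points, blue for batch 1, orange for batch 2) with the group mean and SD as black bars, every axis starting at 0. A4galt is high and Apol9a low in both PDPN-sorted derivatives, Amigo2 is high in X2-PDPN and low in CCR7-PDPN, Mroh1 is low in X2-PDPN, and Myc overlaps between X2 and X2-PDPN.

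Below the chromosome median, the paralogs Apol9a and Apol9b lay farthest by the same limits. They encode apolipoprotein L proteins that respond to interferon. Apol9a (chr15:77403789-77411135) was at 17.6, 15.6, 16.1 and 18.5 CPM in X2 and at 4.28, 4.23, 3.78 and 4.42 CPM in X2-PDPN, a log2 fold change of -2.02 ± 0.08. Apol9b (chr15:77729039-77736382) was at 10.6 to 13.0 CPM in X2 and 3.23 to 3.90 CPM in X2-PDPN (-1.79 ± 0.10). Both were also low in CCR7-PDPN cells: Apol9a was at 4.58 to 5.56 CPM in batch 2 (-1.75 ± 0.08 against X2, edgeR, adjusted p = 1.3e-23) and at 4.57 to 5.61 CPM in batch 1, where CCR7 cells had 12.8 to 18.1 CPM (CCR7-PDPN against CCR7 -1.59 ± 0.10, edgeR, adjusted p = 5.4e-10). In CCR7 against X2 the differences were -0.21 ± 0.09 and -0.18 ± 0.08 (edgeR, adjusted p = 0.050 and 0.055), and both came to be called without CCR7 replicate 1, Apol9a also without X2 replicate 3 and Apol9b without X2 replicate 2. Because the genes are near copies, reads could be split between them, and how the counting treated such reads is not given in the sources used here.

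For Itgb7, Krt80 and Rnd1 the order in batch 2 was X2 highest, X2-PDPN next and CCR7-PDPN lowest. Itgb7, an integrin beta chain of lymphocyte homing, was at 32.2, 35.9, 32.4 and 37.0 CPM in X2, 17.7, 17.4, 18.5 and 17.4 in X2-PDPN (-0.95 ± 0.06) and 5.76 to 7.70 in CCR7-PDPN (-2.35 ± 0.07 against X2, edgeR, adjusted p = 7.9e-31). CCR7 cells already had less Itgb7 than X2 in batch 1, 9.94 to 13.8 against 31.8 to 36.1 CPM (-1.47 ± 0.08, edgeR, adjusted p = 8.5e-11). Krt80, an epithelial keratin, was at 27.8 to 31.4 CPM in X2, 17.4, 16.5, 18.9 and 16.5 in X2-PDPN (-0.76 ± 0.06) and 6.44 to 8.27 in CCR7-PDPN (-2.01 ± 0.07, edgeR, adjusted p = 9.9e-29). Rnd1, a protein that loosens the actin cytoskeleton, was at 22.2 to 25.1 CPM in X2, 12.9 to 14.7 in X2-PDPN (-0.78 ± 0.06) and 7.62 to 8.54 in CCR7-PDPN (-1.56 ± 0.06, edgeR, adjusted p = 3.0e-25). The libraries of the 3 groups did not overlap for any of them, which the rule for named genes required of X2 and X2-PDPN. Their batch 2 p-values share the X2 libraries of that choice. The immune marker Cd68 was in the same order, at 136 ± 7.4, 63.0 ± 5.3 and 26.0 ± 4.0 TPM (SD, n = 4) in X2, X2-PDPN and CCR7-PDPN of batch 2, and its part was not tested.

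The other members farthest below the median, by the limits for named genes, had smaller differences than Apol9a, Apol9b and Itgb7. Members outside these limits, among them Osmr below, could lie farther. Adamts20, a secreted metalloprotease, was at 15.8 to 17.7 CPM in X2 and 8.10 to 10.4 in X2-PDPN (-0.84 ± 0.07), and Retreg1, a receptor for turnover of the endoplasmic reticulum, was at 60.8 to 63.6 and 34.3 to 39.9 CPM (-0.75 ± 0.04). Both were also lower in CCR7-PDPN than in X2 (-1.08 ± 0.08 and -1.09 ± 0.04 in batch 2, edgeR, adjusted p = 1.1e-15 and 1.2e-25). These tests share the X2 libraries on which both genes were chosen. The planar cell polarity genes Prickle1 (2.75 to 3.04 against 1.45 to 2.09 CPM, -0.61 ± 0.16) and Celsr1 (2.19 to 3.08 against 1.55 to 2.04 CPM, -0.56 ± 0.15) followed. Mroh1, a HEAT-repeat protein, was lower in X2-PDPN and not in CCR7-PDPN. It was at 112, 112, 107 and 110 CPM in X2, 78.4, 76.5, 81.4 and 81.6 in X2-PDPN (-0.47 ± 0.03) and 123, 119, 126 and 118 in CCR7-PDPN, which lay above X2 (0.14 ± 0.03, edgeR, adjusted p = 1.0e-04).

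Of 20 tested chromatin and cohesin genes, 18 (90%) were called higher and 0 lower in X2-PDPN against X2, beside 60.8% and 7.44% of all members, with a median of 0.30 and a range of 0.01 to 1.03. Rad21, a cohesin subunit, was at 618, 578, 628 and 596 CPM in X2 and 752, 691, 705 and 731 CPM in X2-PDPN (0.25 ± 0.03). Nipbl, the cohesin loader, was at 293, 300, 302 and 279 CPM and 384, 341, 371 and 380 CPM (0.33 ± 0.03), Cbx5, the heterochromatin protein HP1 alpha, was at 338 to 389 and 503 to 541 CPM (0.51 ± 0.03), and the linker histone gene H1f0 at 246 to 261 and 306 to 327 CPM (0.31 ± 0.03). The X2-PDPN libraries lay above the X2 libraries for all 4. In CCR7-PDPN against X2 the list was mixed, with 9 higher and 4 lower in batch 2 (median 0.05) and 6 higher and 4 lower in batch 1 (median 0.04). Rad21 and Nipbl were at 0.05 ± 0.03 and -0.00 ± 0.03 there in batch 2 (edgeR, adjusted p = 0.14 and 0.91), whereas Cbx5 and H1f0 were higher (0.40 ± 0.03 and 0.35 ± 0.03, edgeR, adjusted p = 1.3e-10 and 6.4e-15).

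Of 21 tested genes of translation, 14 (66.7%) were called higher and 1 (4.76%) lower in X2-PDPN, near the shares of all members, with a median of 0.16. Pabpc1, the poly(A)-binding protein and the member with the most counts, was at 2963 to 3090 CPM in X2 and 3551 to 3617 in X2-PDPN (0.25 ± 0.02), but the ribosomal protein genes Rpl8 (0.08 ± 0.03) and Rpl3 (0.04 ± 0.03) overlapped between the groups. Ddx17, an RNA helicase chosen after its value was seen, was the member called lower (-0.24). Tubulin and cytoskeleton genes gave 10 (90.9%) higher and 0 lower of 11 (median 0.23), among them Tuba1b (0.19 ± 0.04), Tuba1c (0.23 ± 0.03) and the non-muscle myosin gene Myh9 (0.23 ± 0.03). The call of Cdc42ep1 (0.10 ± 0.04), chosen after its value was seen, was lost without X2 replicate 2 or 3. In CCR7-PDPN against X2 of batch 2 translation genes gave 1 higher and 6 lower (median -0.04) and cytoskeleton genes 5 higher and 3 lower (median 0.07). The alpha-tubulin genes are close paralogs and Rpl3 and Rpl8 have pseudogene copies, so that their counts could hold shared reads.

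The 6 tested Hoxc genes, homeobox factors of body-axis patterning, had the highest median of the chromosome 15 lists in X2-PDPN, 0.50, with 5 (83.3%) called higher. Hoxc6 was at 5.58 to 6.57 CPM in X2 and 8.68 to 10.1 in X2-PDPN (0.64 ± 0.08), Hoxc4 at 7.49 to 8.20 and 9.83 to 11.2 CPM (0.45 ± 0.07), and Hoxc10, the most abundant, at 41.4 to 46.0 and 51.2 to 53.4 CPM (0.27 ± 0.04). Hoxc9 (0.32 ± 0.15) was not called, but it was called with upper-quartile factors (0.34), with the replicate number as a block (0.31) and without X2 replicate 1 or 2 or X2-PDPN replicate 2 or 4, and its value ran from 0.19 (without X2 replicate 4) to 0.41 (without X2 replicate 2) as single libraries were left out. The median of the Hoxc list was above 0 in the CCR7 derivatives too. CCR7-PDPN against X2 gave 0.39 in batch 1, with 4 (66.7%) of 6 called higher and 0 lower. Batch 2 gave 0.19, with 2 (33.3%) higher and 0 lower. CCR7 against X2 gave 0.28, with 2 (33.3%) higher and 0 lower. Hoxc4 was also higher in CCR7 and CCR7-PDPN cells of batch 1 than in X2 (0.46 ± 0.08 and 0.47 ± 0.08, edgeR, adjusted p = 7.3e-05 and 3.6e-05). Of 18 transcription factor genes 11 (61.1%) were called higher and 2 (11.1%) lower in X2-PDPN (median 0.24), near the 60.8% and 7.44% of all members. Srebf2, the regulator of cholesterol synthesis, was at 535 to 572 CPM in X2 and 820 to 860 in X2-PDPN (0.59 ± 0.03), and at 670 to 739 CPM in CCR7-PDPN (0.33 ± 0.03, edgeR, adjusted p = 2.0e-14). Atf4, the factor of the integrated stress response, overlapped between X2-PDPN and X2 (0.04 ± 0.03) and was lower in CCR7-PDPN (-0.25 ± 0.03, edgeR, adjusted p = 1.1e-11). Grhl2 (-0.79), an epithelial factor, and Vdr (0.62), the vitamin D receptor, were chosen after their values were seen. Both were lower in CCR7-PDPN than in X2 of batch 2 (-1.41 ± 0.23 and -1.39 ± 0.12, edgeR, adjusted p = 7.5e-07 and 4.8e-14).

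Among ligands and receptors 8 of 12 (66.7%) were called higher and 2 (16.7%) lower in X2-PDPN (median 0.37), beside 60.8% and 7.44% of all members. The ligand gene Wnt7b was at 155, 148, 147 and 159 CPM in X2 and 234, 234, 237 and 232 in X2-PDPN (0.62 ± 0.03), and Ptk2, focal adhesion kinase, at 366 to 388 and 462 to 477 CPM (0.33 ± 0.03), with no overlap for either. Wnt10b was lower, at 54.3 to 61.1 and 51.6 to 52.8 CPM (-0.15 ± 0.04). Osmr, the oncostatin M receptor gene, chosen after its values were seen, was at -1.25. In the CCR7 derivatives this list leaned lower, with 1 higher and 9 lower in CCR7 against X2 (median -0.69) and 2 higher and 8 lower in CCR7-PDPN against X2 of batch 2 (median -0.63). Igfbp6, an inhibitor of insulin-like growth factors, was at 86.2 to 99.2 CPM in X2, 106 to 113 in X2-PDPN (0.22 ± 0.04) and 44.4 to 51.0 in CCR7-PDPN (-0.98 ± 0.04, edgeR, adjusted p = 5.9e-21). Matrix and adhesion genes were divided, with 5 (38.5%) higher and 4 (30.8%) lower of 13 in X2-PDPN (median 0.18) and 4 higher and 7 lower in CCR7-PDPN against X2 of batch 2 (median -0.27). Itga5, the fibronectin receptor chain, was at 185 to 192 CPM in X2, 258 to 266 in X2-PDPN (0.47 ± 0.03) and 231 to 250 in CCR7-PDPN (0.36 ± 0.03, edgeR, adjusted p = 1.8e-15). Lgals1, galectin-1, the most abundant adhesion gene per length (3311 TPM in X2 of batch 2), was at -0.03 ± 0.02 in X2-PDPN.

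The Ly6 genes were far lower in the CCR7 derivatives, and the keratins were divided. All 4 tested Ly6 members were lower in CCR7 than in X2 (median -1.41) and in CCR7-PDPN than in X2 (median -3.01 in batch 1 and -2.90 in batch 2). Of all genes, 25.2% were called lower in CCR7 against X2. The share was 30.6% in CCR7-PDPN against X2 of batch 1 and 32.8% in batch 2. In X2-PDPN 1 was higher and 1 lower (median 0.05). Ly6a, which encodes the stem cell antigen Sca-1, was at 6.41, 5.02, 5.88 and 6.39 CPM in X2, 6.85, 9.44, 7.92 and 7.64 in X2-PDPN (0.43 ± 0.10) and 0.49, 0.68, 0.92 and 0.81 in CCR7-PDPN (-3.0 ± 0.16, edgeR, adjusted p = 1.3e-20). Batch 1 gave 1.35 to 1.88 CPM in CCR7 (-1.93 ± 0.15 against X2, edgeR, adjusted p = 5.0e-10) and 0.29 to 0.85 in CCR7-PDPN. Ly6e was at 139 to 164 CPM in X2, 108 to 110 in X2-PDPN (-0.45 ± 0.04) and 20.4 to 23.1 in CCR7-PDPN (-2.80 ± 0.04, edgeR, adjusted p = 2.3e-34). Ly6a and Ly6c1 are close paralogs, and their counts could hold shared reads. Of the keratins Krt8, a simple-epithelium keratin, was higher in X2-PDPN (260 to 285 against 217 to 228 CPM, 0.31 ± 0.03) and in CCR7-PDPN (280 to 302 CPM, 0.41 ± 0.03, edgeR, adjusted p = 2.8e-16), and Krt80 and Krt7 were lower in both.

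The rule for named genes brought in a few members from the other comparisons. Where a test was given, the rule required an adjusted p under 0.05 and no overlap in the comparison that brought a gene in. A p-value under 0.05 in that comparison was thus fixed by the choice. Pop1, a subunit of RNase P and RNase MRP, was higher in every derivative than in X2: in batch 2 it was at 21.4, 21.1, 22.5 and 21.5 CPM in X2, 39.7, 38.3, 37.9 and 38.8 in X2-PDPN (0.84 ± 0.04) and 44.3, 46.1, 41.9 and 45.2 in CCR7-PDPN (1.04 ± 0.04, edgeR, adjusted p = 1.3e-24), and CCR7 against X2 gave 1.13 ± 0.06 (edgeR, adjusted p = 2.6e-13). The non-coding 4930556M19Rik had the same pattern, at 2.65 to 3.08, 5.00 to 5.35 and 5.56 to 6.85 CPM in the 3 groups of batch 2 (0.85 ± 0.10 in X2-PDPN and 1.13 ± 0.10 in CCR7-PDPN, edgeR, adjusted p = 2.5e-13 for the latter). Smagp, a small membrane glycoprotein, was at 0.96 to 1.39 CPM in X2, 1.41 to 1.78 in X2-PDPN (0.37 ± 0.18) and 3.29 to 4.79 in CCR7-PDPN (1.69 ± 0.15, edgeR, adjusted p = 2.3e-13). Tmem117, a membrane protein, was lower in CCR7 than in X2, 1.67 to 2.34 against 5.38 to 5.98 CPM (-1.46 ± 0.12, edgeR, adjusted p = 7.7e-10), and was at 1.33 to 1.70 CPM in CCR7-PDPN of batch 2. Shank3, a synaptic scaffold, was low in CCR7 cells, at 1.18 to 1.77 CPM against 3.53 to 3.83 in X2 (-1.25 ± 0.13, edgeR, adjusted p = 7.1e-08) and 3.59 to 4.51 in CCR7-PDPN of batch 1. Cela1, an elastase, was at 1.31 to 2.00 CPM in X2 and 2.84 to 3.29 CPM in CCR7-PDPN of batch 2 (0.93 ± 0.15, edgeR, adjusted p = 4.2e-07).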

How the data were processed

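Total RNA of 24 EO771 libraries was sequenced single-end from a stranded TruSeq mRNA kit, and reads were mapped to GRCm38/mm10. The authors deposited raw, not normalized, read counts per Ensembl gene (per the labels, from featureCounts) in one table per batch, with 55471 genes in batch 1 and 13915 in batch 2. Versions and the strand setting of the counting are not given in the sources used here, so that reads of antisense pairs may not be separable. No other column of sample values was present (0).

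Each batch was fitted on its own in edgeR 4.0.16 (R 4.3.3) with all 3 groups, filterByExpr, TMM factors (0.986 to 1.017) and the robust quasi-likelihood test. Benjamini-Hochberg adjustment covered all 13261 (batch 1) or 13314 (batch 2) genes tested. Fold changes are log2 with SE = |log2 fold change| divided by the square root of F. CPM used the TMM factors, and scores used log2 CPM with a prior count of 2. Of 562 members, 557 were tested in batch 1 and 551 in batch 2. The count rule needs 4 libraries of 12, and 476 members passed it in all 12. Promoter windows came from RefSeq, and gene positions from the count tables, the same as in GENCODE M21 for 561 members. Scripts were tested on simulated data.

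The members and gene lists were chosen with earlier results of these data known. Named genes were Myc, the 10 members farthest above and the 10 farthest below the chromosome median in X2-PDPN against X2 (mean log2 CPM of at least 1, libraries not overlapping), 3 and 3 in each other comparison (called, where tested), up to 4 members with the highest TPM in X2 per list, and the members at the border of the count rule. Any other gene is said to have been chosen after its values were seen. Replicate numbers did not pair libraries and were not used as a block. No library was a copy of another of its group, since chi-square per degree of freedom was 1.99 to 20.4 over 36 replicate pairs within groups. The highest values, 20.4, 16.0 and 12.3, were those of CCR7 replicate 1 paired with the other CCR7 libraries. Outside the CCR7 group the highest was 6.59. Alternatives were DESeq2 1.42.0, other scaling factors and filters, a replicate block, each library left out, and other windows.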

Additional observations from a re-analysis of the deposited data

Results flagged for a closer look

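A library that stands away from the 3 others of its group was looked for in 138 groups of values (shares, scores and CPM of named members), and 5 (3.62%) held one, where chance gives about 1 in 20. Chromosome 15 took 5.58% of the counts in X2 batch 1 replicate 2, against 5.597% to 5.600% in the others, and 5.49% in CCR7-PDPN batch 1 replicate 4, against 5.44% to 5.45%. Plec was at 327 CPM in X2 batch 1 replicate 4, against 393 to 402 CPM. Tnrc6b was at 39.1 CPM in X2 batch 2 replicate 4, against 52.4 to 55.1 CPM. Krt80 was at 7.01 CPM in CCR7-PDPN batch 1 replicate 3, against 7.76 to 7.88 CPM. Amigo2 differed in direction between the 2 steps from an X2 or CCR7 derivative to its PDPN-sorted one: every X2-PDPN library lay above every X2 library (0.93 on the log2 CPM scale) and every CCR7-PDPN library of batch 1 below every CCR7 library (-2.71), a difference of 3.64 that was not tested. The lack of overlap between X2-PDPN and X2 was required by the rule for named genes. Besides the score, the search covered only 21 members, Myc and those named by X2-PDPN against X2.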

How the results depend on the processing

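The values a comparison rests on kept their size in 259 recomputations with another setting and moved in 39, and with 1 library left out they kept it in 234 and moved in 6. The medians of the 4 comparisons without X2-PDPN lay near 0 and took either sign across the alternatives, so that no direction is read from them. The cause of the moves was not tested, except that a stricter filter or rule keeps fewer genes. The X2-PDPN against X2 median was 0.223 with scaling factors computed without chromosome 15, 0.206 without a filter on low counts, 0.230 with upper-quartile factors and 0.206 with 10 counts required in all 12 batch 1 libraries. Upper-quartile factors gave -0.209 for CCR7-PDPN against X2-PDPN and -0.0043 for CCR7-PDPN against X2 in batch 1. The 12-library rule gave 0.015 for the latter and 0.0060 for CCR7-PDPN against CCR7. Past a log2 fold change of 1, requiring 50 counts left 9 members higher in X2-PDPN against X2, 6 higher and 21 lower in CCR7-PDPN against X2 of batch 2, 23 lower in CCR7-PDPN against X2-PDPN, 6 higher and 10 lower in CCR7 against X2, 9 lower in CCR7-PDPN against CCR7, and 6 higher and 21 lower in CCR7-PDPN against X2 of batch 1. The 12-library rule left, in the same order, 7 higher and 2 lower, 8 higher and 17 lower, 21 lower, 8 higher and 8 lower, 6 lower, and 6 higher and 21 lower. Without a filter, 5 were higher in CCR7-PDPN against X2-PDPN. Scores from means over members were 0.181 for X2-PDPN, -0.022 for CCR7, and -0.033 and -0.035 for CCR7-PDPN of batches 1 and 2. Ratios of the share to X2 without the 10 most abundant members were 1.156 for X2-PDPN, 0.996 for CCR7, and 0.989 and 0.991 for CCR7-PDPN of batches 1 and 2. Windows of 40 members put 57.1% of medians above 0 for CCR7-PDPN against X2 of batch 2 and 50% for CCR7-PDPN against CCR7, and 5 Mb windows put 10.0% above 0 for CCR7-PDPN against X2-PDPN. Leaving out each library in turn gave medians of 0.20 (without X2 batch 2 replicate 3) to 0.215 for X2-PDPN against X2, -0.020 to 0.0083 for CCR7-PDPN against CCR7 and -0.0070 to 0.0088 for CCR7-PDPN against X2 of batch 1, and 3 to 5 members higher past the fold limit in CCR7-PDPN against X2-PDPN. With the replicate number as a block, X2-PDPN against X2 had 336 members higher and 42 lower and a median of 0.211, and the block moved no count by over 1.5 times. Same-numbered libraries had correlated deviations of -0.120 to 0.106 with 1 of 24 over 0.1, and 6 libraries correlated best with their own number. For named genes, 2938 values under other settings kept their call, 21 gained it and 24 lost it, and with 1 library left out 2885 kept it, 39 gained it and 76 lost it. Changed calls were most frequent in CCR7 against X2, with 60 values over 13 genes. Depth limits members near 10 counts, for which only large differences could be called.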
